A study of Mus musculus with 110 samples.

Results

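The zinc-finger protein (ZFP) was compared with Delta, its control, in NCAR mice, in RNA pulled down from astrocytes of the n_ZFP_a_Rpl set. The 8 libraries were chosen by their labels out of the 110 of the series: 4 of NCAR mice given ZFP (NZ) and 4 of NCAR mice given Delta (ND). The labels give the strain of all libraries as R6/2, a transgenic mouse model of Huntington's disease, and the condition as NCAR or R6/2. NCAR is the condition that is not R6/2. Both agents were delivered by adeno-associated viruses (AAVs) with cell-type specific expression, and both groups carried a virus, so NZ against ND compares 2 viral cargoes. The same pulldown also holds 4 R6/2 libraries with ZFP (RZ) and 3 with Delta (RD), and the set has an Input, RNA from before the pulldown, for each condition. RiboTag places an HA tag on a ribosomal protein so that RNA bound to the tagged ribosomes can be collected with an antibody (the IP). The labels do not state which cells carried the ZFP in this set, the tissue, the age or which ribosomal protein was tagged. They also do not state whether a library is 1 animal or a pool. The p-values of this comparison thus rest on the spread between libraries, estimated over all 15 of this pulldown.

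ZFP repressors of this kind are built to bind the CAG repeat of the huntingtin gene, which is expanded in Huntington's disease and encodes a polyglutamine stretch, and they carry a domain that silences the gene they sit on. The series design text states that the ZFPs were used to lower mutant huntingtin in astrocytes or in neurons. The human mutant transgene has no row in the table used here, and NCAR mice are compared for what the ZFP did to mouse genes. Short CAG runs occur in many mouse genes, and the mouse huntingtin gene, Htt, has a short one.

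Total counts were 46665061 to 47751919 in the NZ libraries and 42926495 to 49859753 in the ND libraries. The pulldown was checked on RD libraries, which enter neither side of the comparison. In the RD IP over the RD Input, the 24 astrocyte markers had a median log2 difference of 2.00, and those of microglia, endothelial cells and oligodendrocytes had medians of -5.64, -3.07 and -0.69. Those of oligodendrocyte precursors had a median of -1.33. The 37 striatal projection neuron markers were at -0.25, cortical excitatory markers at -0.25 and pan-neuronal genes at 0.35. The 21 striatal interneuron markers and the choroid plexus and ependymal markers were enriched in the IP, with medians of 1.28 and 1.7. Neuronal RNA was thus present in the pulldown beside that of astrocytes, and the cell source of a changed gene was not tested. The summed level of 9 of the 10 cell type lists overlapped between NZ and ND. The exception was the list of choroid plexus and ependymal markers, whose 9 genes summed to 58.0 to 73.6 CPM (counts scaled to the library total) in NZ libraries and 74.3 to 97.7 CPM in ND libraries. In bulk RNA, fewer cells of a type and less RNA per cell cannot be told apart.

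With ZFP, 133 genes were lower and 183 were higher than with Delta, of 15246 tested (0.872% and 1.2%; edgeR's quasi-likelihood test, adjusted p under 0.05 by Benjamini-Hochberg). The lower genes included the larger changes. Of them, 36 were lower by more than 2-fold, whereas 5 of the higher genes exceeded 2-fold. The median log2 change was -0.415 among the lower genes and 0.27 among the higher ones, against -0.01 over all genes tested. The NZ libraries all lay below the ND libraries in 4.55% of the genes tested and all above them in 5.07%. The counts moved with single libraries: without NZ replicate 3 they were 262 lower and 379 higher, and without NZ replicate 4 they were 67 lower and 84 higher. Without NZ replicate 2, ND replicate 1 or ND replicate 2, the higher genes numbered 120, 114 and 112, and a fit of the 8 libraries alone gave 69 lower and 77 higher genes, against 298 and 577 in DESeq2.

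**Figure D1:**
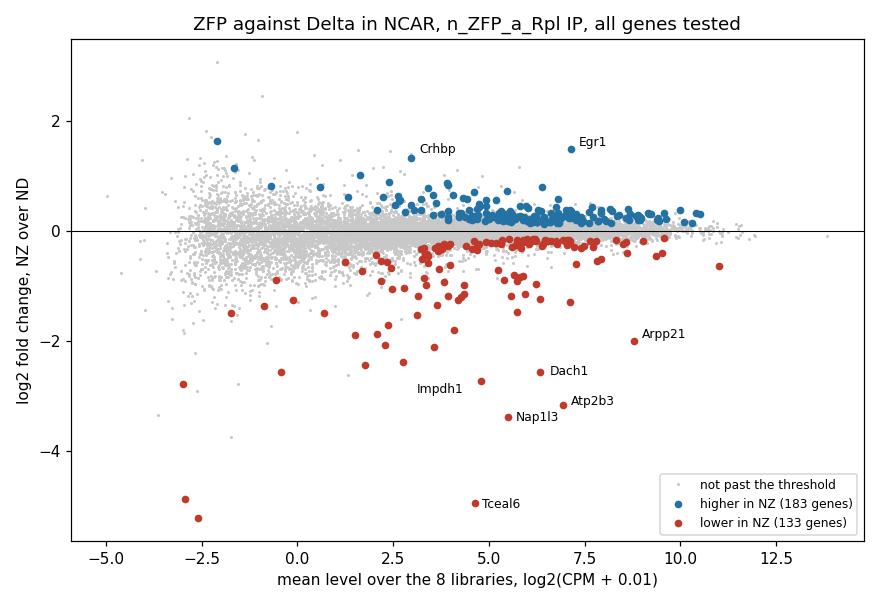
Each point is 1 of the 15246 genes tested, with its mean level over the 8 libraries on the x axis (log2 of CPM + 0.01) and its log2 fold change of NZ over ND on the y axis. The 133 lower genes reach much farther from 0 than the 183 higher genes, and most genes lie near 0.

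Tceal6 fell most among the genes with a mean of at least 5 CPM over the 8 libraries. It encodes a small X-linked relative of the transcription elongation factor TFIIS (chrX:135208686-135210687, mm10). Its level was 1.99, 1.46, 1.66 and 1.12 CPM in the NZ libraries, against 45.5, 50.8, 46.4 and 49.4 CPM in the ND libraries. The groups are far apart and each is tight. The log2 fold change was -4.95 ± 0.14 (adjusted p = 5.08e-12). A second X-linked gene, Nap1l3, encodes a nucleosome assembly protein of the nervous system (chrX:122394560-122397385). Its level was 10.6, 6.82, 6.17 and 8.51 CPM in NZ libraries and 78.1, 76.5, 85.96 and 91.8 CPM in ND libraries, a log2 fold change of -3.37 ± 0.17 (adjusted p = 2.75e-08). All NZ libraries were low and all ND libraries high. The X-linked gene Atp2b3 encodes a plasma membrane pump that moves calcium out of the cell (chrX:73502749-73573275). It had 25.4, 37.8, 17.9 and 17.5 CPM in NZ libraries and 220.0, 221, 225 and 217 CPM in ND libraries, with a log2 fold change of -3.16 ± 0.26 (adjusted p = 1.95e-05). NZ replicate 2 was the least low of its group and still lay far below every ND library. In all, 12 of the 133 lower genes lie on the X chromosome (9.02%), against 4.92% of the higher genes and 3.57% of the genes tested that have a position.

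Other strongly lowered genes work in metabolism, protein folding and gene control. Impdh1, a rate-limiting enzyme of guanine nucleotide synthesis (chr6:29200436-29216364), had 6.96, 8.36, 6.79 and 7.06 CPM in NZ libraries and 49.4, 49.4, 45.7 and 48.1 CPM in ND libraries. The spread within each group was small, NZ replicate 2 being the highest of the NZ libraries, and the log2 fold change was -2.72 ± 0.07 (adjusted p = 3.12e-12). Acsl1 joins long-chain fatty acids to coenzyme A (chr8:46471037-46536051). It had 26.8, 30.01, 27.2 and 28.1 CPM in NZ libraries and 77.95, 80.5, 71.9 and 80.05 CPM in ND libraries, a log2 fold change of -1.47 ± 0.04 with one of the smallest errors of the named genes. Dach1 encodes a transcriptional corepressor (chr14:97786846-98169765). It had 24.6, 24.9, 21.7 and 22.1 CPM in NZ libraries, against 149.7, 148, 133 and 124 CPM in ND libraries, and a log2 fold change of -2.57 ± 0.09 (adjusted p = 6.53e-11).

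Arpp21, an RNA-binding phosphoprotein that is abundant in striatal projection neurons (chr9:112065091-112236288), had 185, 193, 147 and 181 CPM in NZ libraries and 729.8, 691, 640.1 and 778 CPM in ND libraries. No library of one group came near the other, and the log2 fold change was -2.01 ± 0.11 (adjusted p = 2.58e-08). The co-chaperone gene Dnajc12, which helps aromatic amino acid hydroxylases to fold, averaged 2.17 ± 0.472 CPM in NZ libraries and 11.3 ± 0.991 CPM in ND libraries (SD, n = 4 each; log2 -2.38 ± 0.14). Rassf3, of the Ras association domain family, averaged 4.46 ± 0.578 CPM in NZ libraries and 19.3 ± 2.87 CPM in ND libraries (log2 -2.11 ± 0.12). Eid2b, an inhibitor of differentiation, averaged 7.64 ± 0.976 CPM in NZ libraries and 26.5 ± 2.66 CPM in ND libraries (log2 -1.79 ± 0.09). All genes named as lowest were chosen with no overlap between NZ and ND. Brdt, a bromodomain protein best known from testis, fell by 1.71 ± 0.10 on the log2 scale, and Mzt2, a subunit of the gamma-tubulin complex, by 1.53 ± 0.08. Reads of Mzt2 may be shared with a near-identical copy. The 12 genes named here as the lowest stayed past the threshold in each of the 13 alternative settings tried.

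**Figure D2:**
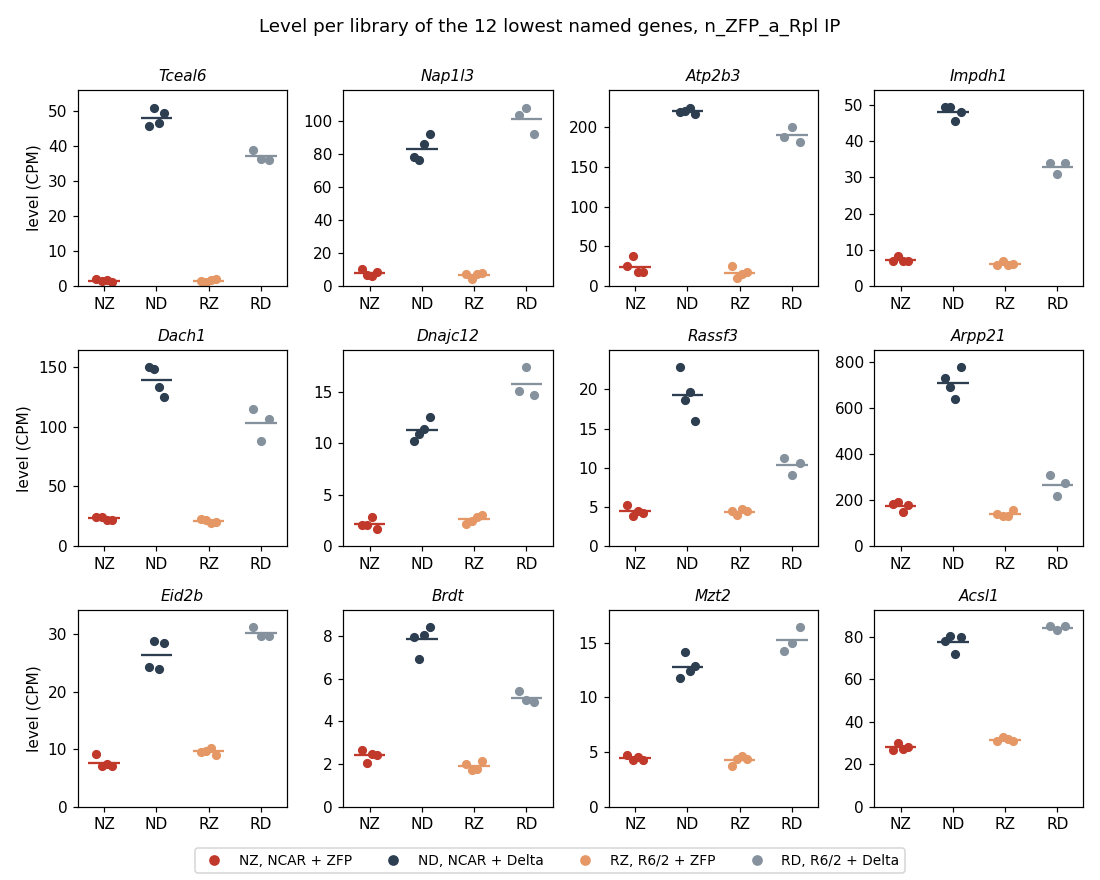
Levels in CPM (y axis, from 0) of the 12 genes with the lowest log2 fold change among those named, 1 point per library and a line at each group mean, for NZ, ND, RZ and RD libraries of the IP. The 4 NZ libraries lie below the 4 ND libraries in every panel because the genes were chosen with no overlap; in R6/2 the 4 RZ libraries lie below the 3 RD libraries.

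Since this class of repressor is designed on CAG repeats, the start regions of the changed genes were searched for CAG in a row, written CAGCAGCAG for 3 repeats, on either strand. The windows run from 250 bases before to 50 bases after an annotated start (RefSeq, GRCm38.p6, the assembly of mm10). The table holds a window for 105 of the 133 lower genes (78.9%), 143 of the 183 higher genes (78.1%) and 11997 of the genes tested (78.7%). This is below the 80% needed for a check over a set, so the shares are void as such a check and only describe the genes with a window. A run of 3 or more was found in 11 of the 105 lower genes (10.5%), in 3 of the 143 higher genes (2.1%) and in 292 of the 11997 genes tested (2.43%). A run of 4 or more was found in 7 lower genes (6.67%), in 0 higher genes and in 0.458% of the genes tested. The share of lower genes with 3 repeats moved to 5.16% when NZ replicate 3 was left out and more genes passed, and lay between 6.12% and 16.7% in the other settings, which were chosen after seeing the data.

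The sequences below are those of 6 lower genes with a run, which show how its length and place vary; capitals mark the run on the strand of the gene, 5′ to 3′, where CTG is CAG read on the other strand.
Tceal6: cccccgcgccagctagtcCTGCTGCTGCTG
Impdh1: cagcgtggcctcggtgcgcgtCAGCAGCAG
Opcml: cagaggaagcagcctcggtagCAGCAGCAG
Fkbp3: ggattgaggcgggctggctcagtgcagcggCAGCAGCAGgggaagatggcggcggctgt
Rsl24d1: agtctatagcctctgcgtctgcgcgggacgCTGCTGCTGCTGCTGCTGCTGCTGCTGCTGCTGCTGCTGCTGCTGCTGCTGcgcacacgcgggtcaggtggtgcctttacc
Mt3: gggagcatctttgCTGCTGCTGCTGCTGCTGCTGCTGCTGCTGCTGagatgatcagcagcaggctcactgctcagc

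In Tceal6 (chrX:135210638-135210667, minus strand) 4 repeats span positions 39 to 50 after the start, and in Impdh1 (chr6:29212248-29212277, minus strand) 3 repeats span positions 42 to 50. Both runs end where the window ends, so they may go on past it. In Opcml (chr9:27791303-27791332, plus strand), a cell adhesion gene, 3 repeats lie at positions 26 to 34. In Fkbp3 (chr12:65073909-65073967, minus strand), a nuclear prolyl isomerase, 3 repeats lie at positions 2 to 10. The runs of Rsl24d1 (chr9:73113263-73113373, plus strand), a ribosome biogenesis factor, and Mt3 (chr8:94152357-94152432, plus strand), the metallothionein of the brain, lie before the start and hold 17 and 11 repeats. These 4 genes and the 5 below were named after their values were seen. Rsl24d1 had 10.2, 10.3, 9.54 and 9.26 CPM in NZ libraries and 18.2, 17.8, 18.8 and 20.4 CPM in ND libraries (log2 -0.94 ± 0.08, adjusted p = 1.65e-06). Mt3 had 167, 153, 165 and 168 CPM in NZ libraries and 198, 196, 210.2 and 188 CPM in ND libraries, a smaller change (log2 -0.28 ± 0.06, adjusted p = 0.0157). Opcml and Fkbp3 fell by 1.29 ± 0.06 and 1.24 ± 0.07. The other 5 lower genes with a run were Cilp, Prelp, Primpol, Ndrg3 and Elp6, with 7, 5, 5, 3 and 5 repeats and log2 fold changes of -2.79, -1.05, -0.56, -0.50 and -0.34. Cilp passed narrowly (adjusted p = 0.0456) and did not pass the filter on low counts in the Input, the n_ZFP_n_Rpl IP or the MG IP. The run of Ndrg3 also ends where the window ends, so it may go on past it. Long and short runs were found among large and small changes. A run of 3 or more was in 6 of the 24 genes with a window that were lower by over 2-fold (25.0%). It was in 5 of the 81 that were lower by under 2-fold (6.17%). Windows covered 66.7% and 83.5% of these 2 groups, and the difference was not tested. A run is a description of the sequence and not a binding site.

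Whether the same genes were lower outside this pulldown was read from other libraries. The Input is not independent of the IP, since libraries of 1 condition and number deviated together (correlations of 0.42 to 0.66 across genes). In the Input of the set, 56 of the 131 lower genes tested there were also lower in NZ (42.7%), where 0.482% of all genes were; they make up 73.7% of the 76 genes lower in the Input. In the IP of neurons of the n_ZFP_n_Rpl set, 65 of 129 were lower (50.4%, against 4.5% of all genes), which is 9.54% of the 681 genes lower there. In the MG IP, also from astrocytes, 22 of 132 were lower (16.7%, against 3.36% of all genes) and 6 were higher, against 3.68% of all genes. These lists moved with single libraries of their own sets. The 76 and 75 genes lower and higher in the Input were 44 and 33 without its NZ replicate 4 and 50 and 34 without its ND replicate 2, and the higher ones were 49 without its NZ replicate 2 or 3. The 681 and 432 genes lower and higher in the n_ZFP_n_Rpl IP were 328 and 196 without its NZ replicate 2, 390 and 248 without its NZ replicate 3 and 367 and 232 without its ND replicate 3, and the lower ones were 444 without its ND replicate 4. The 516 and 565 genes lower and higher in the MG IP were 14 and 5 without its ND replicate 2, 15 and 11 without its ND replicate 1, 17 and 15 without its NZ replicate 3, 25 and 25 without its NZ replicate 5, 59 and 68 without its ND replicate 3, 201 and 206 without its ND replicate 4, 1063 and 994 without its NZ replicate 2, and 3 and 0 with the number as a replicate block. In all, 45 genes were lower in the IP, the Input and the n_ZFP_n_Rpl IP of NCAR mice. Of these 45, 38 were lower in RZ against RD too, where 14.7% of all genes were lower.

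The 10 of these 45 with the lowest mean change were Tceal6, Gpx6, Nap1l3, Dach1, Atp2b3, Impdh1, Gab3, Dnajc12, Brdt and Arpp21. Tceal6 had 20.8, 17.4, 12.6 and 13.4 CPM in NZ Inputs and 51.1, 53.2, 45.8 and 46.3 CPM in ND Inputs. In the n_ZFP_n_Rpl IP it had 15.1, 14.3, 16.1 and 10.97 CPM in NZ libraries and 68.3, 67.6, 71.2 and 72.7 CPM in ND libraries. The groups were separate in both, with log2 fold changes of -1.61 ± 0.14 and -2.31 ± 0.09 (adjusted p = 3.57e-05 and 1.89e-10). In the MG IP, Tceal6 had 39.9, 39.99, 50.6 and 43.5 CPM in NZ libraries and 84.6, 79.3, 79.7 and 78.1 CPM in ND libraries, and fell by 0.89 ± 0.13 (adjusted p = 0.00653). Its change was thus found in every kind of library compared and was of unequal size. The adaptor gene Gab3 and the selenoprotein relative Gpx6 lay below the level set for the largest changes. Gab3 had 0.246, 0.199, 0.243 and 0.154 CPM in NZ libraries and 1.43, 1.13, 1.03 and 1.42 CPM in ND libraries (log2 -2.56 ± 0.22). Gpx6 had 0.760, 1.96, 0.863 and 0.616 CPM in NZ libraries and 4.98, 8.79, 5.35 and 3.60 CPM in ND libraries (log2 -2.43 ± 0.50, adjusted p = 0.0222), NZ replicate 2 and ND replicate 2 being the highest of their groups. The call of Gpx6 was lost without ND replicate 2, NZ replicate 1 or NZ replicate 4 (adjusted p = 0.0708, 0.0715 and 0.0857).

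**Figure D3:**
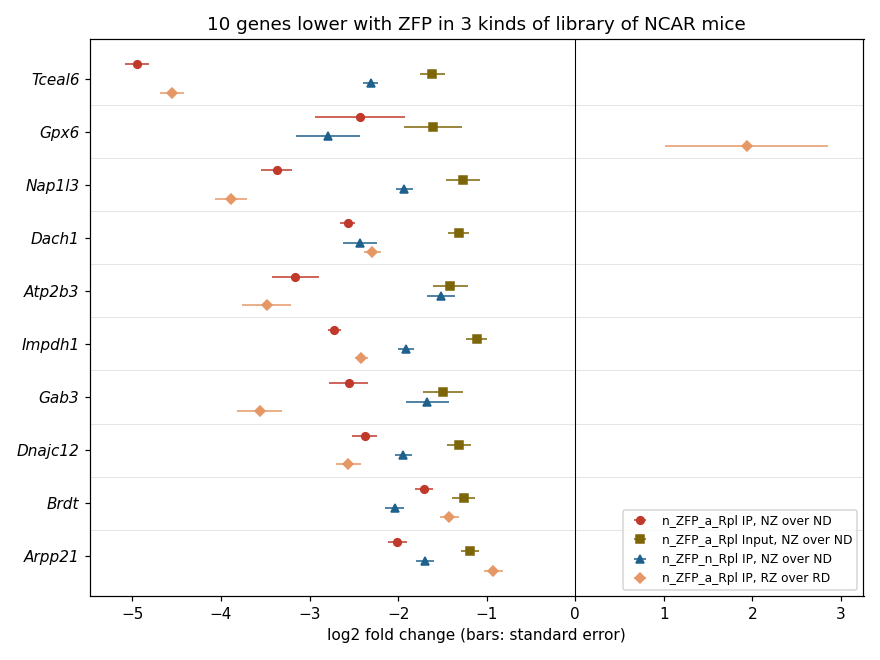
Log2 fold change with its standard error (x axis) of the 10 genes named from those lower in the n_ZFP_a_Rpl IP, its Input and the n_ZFP_n_Rpl IP of NCAR mice, with RZ over RD of the n_ZFP_a_Rpl IP beside them. Tceal6 is at -4.95 in the IP, -1.61 in the Input and -2.31 in the n_ZFP_n_Rpl IP; Gpx6 is the gene whose RZ over RD value lies above 0.

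The difference of the ZFP effect between IP and Input was tested in 1 model of 30 libraries. It passed for 12 genes as lower (0.0738% of 16255) and 9 as higher (0.0554%), and all 21 were among the genes changed in the IP in the same direction; the difference contains the IP effect, so this direction is in large part built in. IP and Input libraries of 1 number deviated together, and with the number as a replicate block the counts were 22 and 35. In the model without the block, the higher count of 9 fell to 2 without Input NZ replicate 1. It was 3 without Input ND replicate 1, IP ND replicate 1 or IP NZ replicate 1. It was 4 without IP NZ replicate 4, Input ND replicate 3 or Input ND replicate 4, and 5 without IP ND replicate 2. The differences from the Input given below are from that model too. With the block, that of Tceal6 was -3.32 ± 0.10. The ZFP effect was larger in the IP for Tceal6, by -3.32 ± 0.20 (adjusted p = 9.82e-11), Nap1l3, by -2.09 ± 0.26, Atp2b3, by -1.74 ± 0.32, Impdh1, by -1.60 ± 0.14, and Dach1, by -1.25 ± 0.15. Kcnn3, a calcium-activated potassium channel gene, had 44.5, 33.1, 37.8 and 36.9 CPM in NZ libraries and 80.9, 88.5, 89.8 and 78.8 CPM in ND libraries of the IP. In the Input it had 38.8, 34.6, 28.8 and 29.1 CPM in NZ libraries and 74.5, 72.6, 76.7 and 71.9 CPM in ND libraries. The changes were -1.15 ± 0.09 in the IP and -1.17 ± 0.11 in the Input, with a difference of 0.03 ± 0.14 that did not pass (adjusted p = 1). Against the n_ZFP_n_Rpl IP, the difference passed for 417 of 15656 genes as lower (2.66%) and 494 as higher (3.16%). Among the first were 20 of the 133 lower genes, and among the second 60 of the 183 higher genes. This difference too contains the IP effect by which these genes were chosen, so their direction in it is in large part built in. The counts of 417 and 494 became 177 and 214 without IP NZ replicate 2, and 196 and 235 without IP NZ replicate 4. They were 217 and 251 without IP ND replicate 3, and 235 and 290 without IP ND replicate 2. Without ND replicate 3 of the n_ZFP_n_Rpl IP they were 275 and 302. The higher count was 746 without IP NZ replicate 3, 300 without NZ replicate 2 and 326 without NZ replicate 3 of the n_ZFP_n_Rpl IP. The ZFP effect was lower in the astrocyte IP for Tceal6 (-2.64 ± 0.16), Atp2b3 (-1.65 ± 0.30) and Nap1l3 (-1.45 ± 0.19), and the difference did not pass for Dach1 (-0.15 ± 0.21, adjusted p = 0.748).

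Among the genes that were higher with ZFP, Egr1 had the highest fold change at a mean of at least 5 CPM. Egr1, an immediate early transcription factor, had 169, 244, 178 and 243 CPM in NZ libraries, against 51.7, 63.5, 76.1 and 107 CPM in ND libraries. All NZ libraries lay above all ND libraries, ND replicate 4 being the highest of its group. Egr1 rose by 1.48 ± 0.24 on the log2 scale (adjusted p = 0.00534). It rose by 1.37 ± 0.23 in the Input (adjusted p = 0.0157), and in the n_ZFP_n_Rpl IP it was at -0.46 ± 0.15 and did not pass (adjusted p = 0.0792). The difference between the 2 IPs was 1.94 ± 0.28 (adjusted p = 3.61e-04). Of the 20 activity-regulated genes tested, Egr1 alone passed in edgeR, 15 were above 0 and the median was 0.41. Unadjusted p was under 0.05 for 6 of the 20, where 2846 of all 15246 genes had such a p. DESeq2 called 4 of the 20 as higher, among 577 genes in all. Nr4a1, Nr4a3 and Fosl2, also immediate early genes, were at 1.16 ± 0.43, 1.09 ± 0.28 and 0.99 ± 0.30 without passing in edgeR (adjusted p = 0.184, 0.0655 and 0.111). In the n_ZFP_n_Rpl IP, 7 of the 20 were lower with ZFP and 0 higher, where 4.5% and 2.86% of all genes were. In the Input 0 were lower and 2 higher, where 0.482% and 0.475% of all genes were.

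Crhbp, which binds corticotropin-releasing hormone, had 10.8, 9.998, 12.4 and 11.8 CPM in NZ libraries and 4.67, 4.44, 4.79 and 3.97 CPM in ND libraries (log2 1.33 ± 0.19, adjusted p = 0.00128). P2ry1, a purinergic receptor for ADP, had 53.3, 56.2, 50.99 and 62.3 CPM in NZ libraries and 37.05, 29.4, 36.8 and 31.5 CPM in ND libraries (log2 0.72 ± 0.12, adjusted p = 0.00431). Slitrk6, a neuronal transmembrane protein, rose by 0.86 ± 0.10, and Ipcef1, a partner of the exchange factor cytohesin, by 0.70 ± 0.12. Th, the rate-limiting enzyme of dopamine synthesis, had 25.5, 22.7, 23.1 and 25.2 CPM in NZ libraries and 14.6, 16.7, 15.3 and 16.8 CPM in ND libraries (log2 0.60 ± 0.09, adjusted p = 0.00166). Dnttip2, a nucleolar protein, and Zcwpw1, a reader of methylated histones, each rose by 0.58, with errors of 0.07 and 0.08.

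Several noncoding RNAs were also among the higher genes. Rian and Meg3, long noncoding RNAs of one imprinted cluster on chromosome 12, had 106, 96.95, 111 and 114 CPM and 133, 131, 118 and 151 CPM in the NZ libraries. In the ND libraries Rian had 56.4, 60.3, 58.9 and 70.4 CPM and Meg3 84.3, 99.1, 75.5 and 96.3 CPM. Each gene's groups were separate, at log2 0.80 ± 0.07 and 0.58 ± 0.08 (adjusted p = 6.26e-06 and 0.00136). Rmrp, the RNA of a ribonuclease, rose by 0.77 ± 0.15 and the transcript D7Ertd715e by 0.65 ± 0.09. Malat1, Firre and Ftx, nuclear long noncoding RNAs named after their values were seen, rose by 0.32 ± 0.07, 0.54 ± 0.10 and 0.56 ± 0.11 (adjusted p = 0.0209, 0.0113 and 0.0134). These RNAs are poor in the pulldown: in the RD IP over the RD Input they were at -3.89 for Meg3, -3.06 for Rian, -3.50 for Rmrp, -3.06 for Malat1, -3.43 for Firre and -3.62 for Ftx on the log2 scale.

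Meg3 had 1352, 1401, 1493 and 1476 CPM in NZ Inputs, against 1492, 1300.0, 1270.0 and 1479 CPM in ND Inputs. These groups overlapped, and the difference between the IP effect and the Input effect passed at 0.55 ± 0.10 (adjusted p = 0.0155). Rian in the Input had 664, 594, 696 and 715 CPM in NZ libraries and 492, 466, 434 and 504 CPM in ND libraries and rose there too, by 0.49 ± 0.08 (adjusted p = 0.00492). D7Ertd715e also rose in the Input, by 0.34 ± 0.06 (adjusted p = 0.0127). For Rmrp, Malat1, Firre and Ftx the NZ and ND Inputs overlapped, and Rmrp was at -0.02 ± 0.13 there (adjusted p = 0.976). With the number as a replicate block, their IP effect exceeded the Input effect by 0.80, 0.34, 0.55 and 0.53, and all passed. Without the block, that of Rmrp did not pass (adjusted p = 0.257). In the RD IP over the RD Input, the 183 higher genes had a median of -0.23 and the 133 lower genes a median of 0.225, against -0.01 over all genes. Of the higher genes 102 were below the Input past the threshold and 41 above it, and of the lower genes 22 were below it and 69 above. As shares, 55.7% of the higher genes were below the Input and 22.4% above it, and 16.7% of the lower genes below and 52.3% above, where 33.8% of all genes were below and 34.5% above. The share of Input RNA carried into each pulldown was not measured here, and its part in these results was not tested. In the Input itself, 31 of the 183 higher genes were higher (16.9%, against 0.475% of all genes), and 10 of 182 in the n_ZFP_n_Rpl IP (5.49%, against 2.86%). In the MG IP 7 of the 183 were higher (3.83%, against 3.68% of all genes), a share near that of all genes, and 14 were lower (7.65%, against 3.36%). The genes higher in the IP, the Input and the n_ZFP_n_Rpl IP numbered 6: Rian, Slitrk6, D7Ertd715e, Ifrd1, 2610316D01Rik and A830080D01Rik, the last 3 named after their values were seen.

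**Figure D4:**
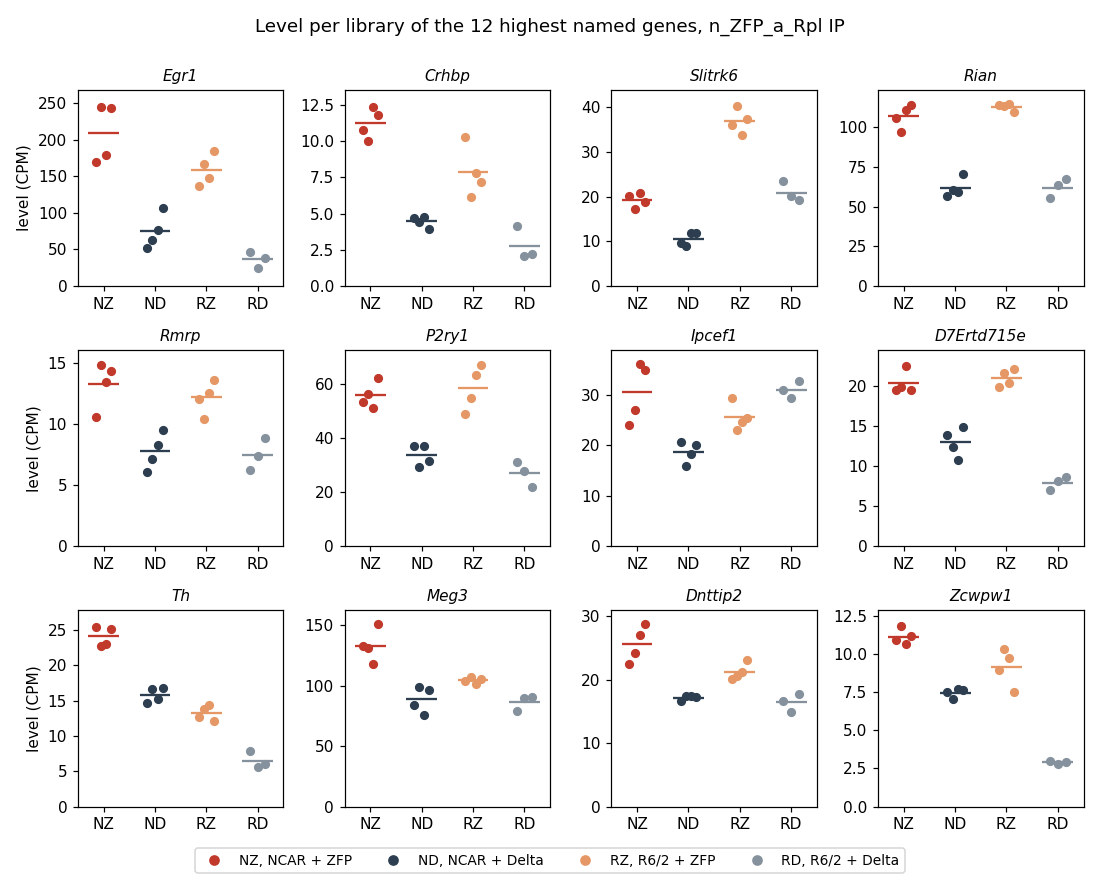
Levels in CPM (y axis, from 0) of the 12 genes with the highest log2 fold change among those named, 1 point per library and a line at each group mean, for NZ, ND, RZ and RD libraries of the IP. The NZ libraries lie above the ND libraries in every panel because the genes were chosen with no overlap.

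The same ZFP contrast in R6/2 mice (RZ against RD, which shares no library with NZ against ND) called more genes, with 19.1% of the genes higher and 14.7% lower. Of the 133 genes lower in NZ, 76 were lower in RZ (57.1%) and 10 were higher. Of the 183 higher in NZ, 119 were higher in RZ (65.0%) and 4 were lower. The ZFP by genotype interaction (the R6/2 effect minus the NCAR effect) was positive for 11.4% of all genes and negative for 5.07%. It passed for 40 of the 133 lower genes (38 positive, 2 negative) and for 71 of the 183 higher genes (38 positive, 33 negative). The interaction subtracts the NCAR effect by which these genes were chosen, so its direction in them is no independent result. It did not pass for Tceal6 (0.39 ± 0.20, adjusted p = 0.192), Nap1l3 (-0.51 ± 0.24, adjusted p = 0.171), Atp2b3 (-0.32 ± 0.37, adjusted p = 0.614) or Acsl1 (0.05 ± 0.06, adjusted p = 0.649), which does not show that the effects were equal.

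Among the genes for which it passed, Arpp21 had 140.3, 133, 133 and 157 CPM in RZ libraries and 308, 219 and 274 CPM in RD libraries. The NZ and RZ libraries lay near each other, whereas the ND libraries lay far above the RD libraries. The interaction was 1.09 ± 0.15 (adjusted p = 3.33e-04). Rgs4, a brake on G protein signalling in striatal neurons, had 638, 739, 589 and 543 CPM in NZ libraries and 912, 869, 796 and 756 CPM in ND libraries. In R6/2 it had 503, 493, 472 and 481 CPM in RZ libraries and 236, 189 and 209.8 CPM in RD libraries. Rgs4 fell with ZFP in NCAR (-0.41 ± 0.09, adjusted p = 0.0241) and rose in R6/2 (1.20 ± 0.10), with an interaction of 1.61 ± 0.13. The NCAR call of Rgs4 was lost without ND replicate 1 or 2, without NZ replicate 1 or 4 and in the fit of the 8 libraries alone (adjusted p = 0.0753, 0.0750, 0.0562, 0.0871 and 0.0947).

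Htr2a, a serotonin receptor gene, rose in both genotypes, and more in R6/2. It had 36.5, 38.9, 35.1 and 35.5 CPM in NZ libraries and 23.1, 26.8, 25.9 and 22.8 CPM in ND libraries, a log2 fold change of 0.57 ± 0.09. In R6/2 the change was 2.23 ± 0.10 and the interaction 1.66 ± 0.13 (adjusted p = 4.05e-06). The splicing kinase gene Clk1 rose in NCAR, with 41.6, 42.1, 40.01 and 49.4 CPM in NZ libraries and 28.4, 23.8, 27.6 and 37.4 CPM in ND libraries (log2 0.56 ± 0.12, adjusted p = 0.0206), and did not pass in R6/2 (-0.19 ± 0.12, adjusted p = 0.273). Its interaction was -0.75 ± 0.17 (adjusted p = 0.00769). The NCAR call of Clk1 was lost without ND replicate 1, 2 or 3, without NZ replicate 4 and in the fit of the 8 libraries alone (adjusted p = 0.0604, 0.0554, 0.0697, 0.0809 and 0.0958). Ipcef1 and the spliceosome gene Snrnp48 had negative interactions of -0.98 ± 0.18 and -0.75 ± 0.13.

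Single members of the astrocyte lists passed the test, where 0.872% of all genes were lower and 1.2% higher. Of the 24 astrocyte markers 0 rose and 1 fell, Slc7a10, a carrier of small neutral amino acids, which had 47.5, 41.3, 47.5 and 38.7 CPM in NZ libraries and 52.97, 57.2, 57.1 and 48.01 CPM in ND libraries (log2 -0.30 ± 0.07, adjusted p = 0.0446). The groups do not overlap but nearly touch. The median of the 24 was -0.10 and 21 were below 0, against a median of -0.01 over all genes. In RZ against RD 21 of the 24 fell, where 14.7% of all genes did. Of the 20 genes of astrocyte transport and coupling 1 fell, the glutamine carrier Slc38a3, with 169, 142, 154 and 138 CPM in NZ libraries and 179, 199, 196 and 172 CPM in ND libraries (log2 -0.31 ± 0.07, adjusted p = 0.0266), and the median was -0.15. Of 19 genes of lipid export and transport 2 fell, the fatty acid carrier Fabp7 (-0.58 ± 0.12) and the cholesterol carrier Npc2 (-0.18 ± 0.04), and of 22 genes of cholesterol synthesis 1 fell, Dhcr7, its last enzyme (-0.23 ± 0.05). Of 27 astrocyte reactivity genes 0 passed (median -0.08), and Gfap was at -0.07 ± 0.16 (adjusted p = 0.87). The interferon list (29 genes, median -0.185) and the complement and antigen presentation list (18 genes, median -0.28) also had 0 members past the threshold. At an unadjusted p under 0.05, which 2846 of the 15246 genes tested reached, the reactivity, interferon and complement lists held 4, 0 and 1 genes, and DESeq2 called 2, 0 and 1 of them, all lower. The lists of astrocyte markers, astrocyte transport, lipid export and cholesterol synthesis held 8, 11, 6 and 6. DESeq2 called 3 members of each as lower and 0 as higher, where it called 298 genes lower in all.

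**Figure D5:**
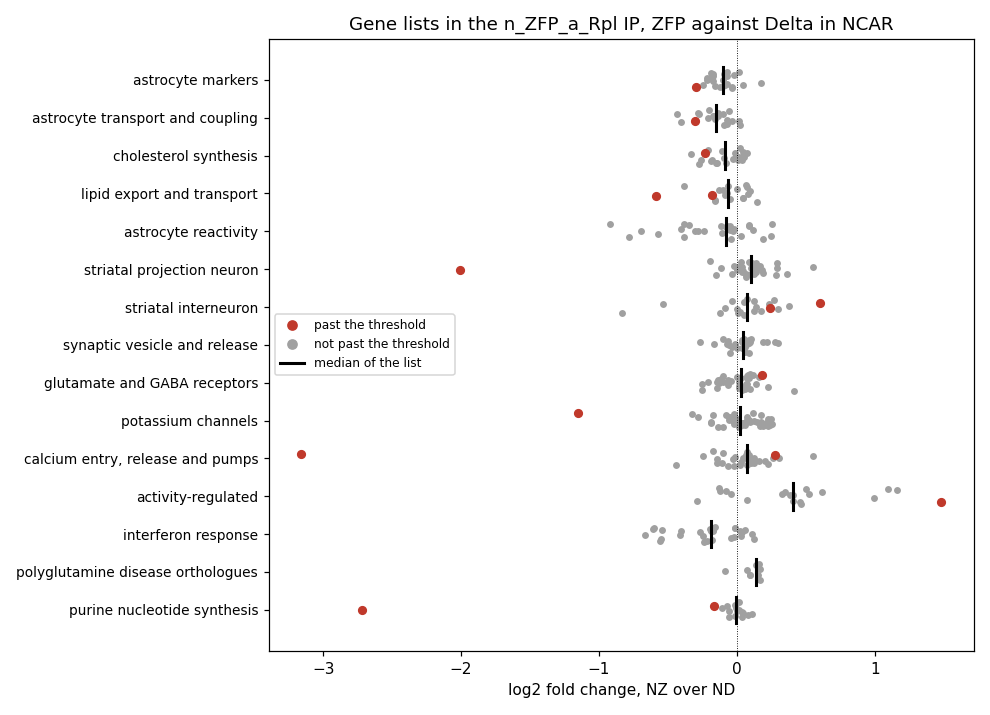
Log2 fold change of NZ over ND (x axis) for each tested member of 15 gene lists, 1 point per gene, with the median of each list as a bar. Each list holds 0 to 2 members past the threshold, and Atp2b3, Impdh1, Arpp21 and Kcnn3 lie far below the rest of their lists.

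The neuronal lists are to be read against the same shares of all genes, 0.872% lower and 1.2% higher. Of the 37 striatal projection neuron markers 0 rose and 1 fell, Arpp21, with a median of 0.10; in RZ against RD 35 rose (19.1% of all genes), and the interaction passed for 31, all positive (11.4% of all genes). Of the 21 interneuron markers Th and the receptor tyrosine kinase gene Kit rose, Kit having 132, 128, 126 and 122 CPM in NZ libraries and 113, 108, 102 and 107 CPM in ND libraries (log2 0.24 ± 0.05, adjusted p = 0.0124). Of the 26 synaptic vesicle genes 0 passed (7 at an unadjusted p under 0.05, and 2 higher in DESeq2), and of the 35 glutamate and GABA receptor genes 1 rose, the AMPA receptor subunit Gria1 (0.18 ± 0.04, adjusted p = 0.0362). Of the 44 potassium channel genes Kcnn3 fell and 0 rose in edgeR, whereas DESeq2 called 5 as higher and 1 as lower. Of the 32 genes of calcium entry, release and pumps Atp2b3 fell and Cacnb3, a calcium channel subunit, rose (0.28 ± 0.05). Impdh1 and Gmps (-0.17 ± 0.04), which act in turn on the way to guanine nucleotides, fell among 17 purine synthesis genes, whose median was -0.01. The call of Gmps was lost in 9 of the 13 alternative settings and that of Impdh1 in 0. Of 25 glycolysis genes the kinase gene Pdk1 fell (-0.15 ± 0.04), and of 32 chaperone genes Dnajc12. Of the 15 tested members of the Tceal and Bex family and their X-linked neighbours, 3 fell and 12 did not pass; Tceal6 and Nap1l3 were the lowest, and Nap1l2 (-0.27 ± 0.06) was the other. The lists of astrocyte synapse-forming and engulfment, pan-neuronal, cortical excitatory, microglia, oligodendrocyte, oligodendrocyte precursor, endothelial and mural, choroid plexus and ependymal, integrated stress response, p53 target and developmental transcription factor genes had 0 members past the threshold in edgeR. At an unadjusted p under 0.05 they held 0 to 5 genes each, and DESeq2 called 1 p53 target and 1 pan-neuronal gene as higher and 1 pan-neuronal gene as lower. The projection neuron, interneuron, receptor, potassium channel and calcium lists held 7, 6, 4, 13 and 13 such genes. DESeq2 called 3, 4, 1, 5 and 4 of their members as higher and 1, 0, 0, 1 and 2 as lower. The purine, glycolysis, chaperone and Tceal lists held 3, 8, 5 and 8, and DESeq2 called 2, 2, 1 and 4 as lower. Of all 15246 genes, 2846 had such a p, and DESeq2 called 577 as higher and 298 as lower.

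Htt, the mouse huntingtin gene, had 464, 449.6, 419.9 and 457 CPM in NZ libraries and 436, 425, 414 and 423 CPM in ND libraries. The groups overlap, and the log2 difference of 0.08 ± 0.04 did not pass (adjusted p = 0.304). Of the 9 mouse orthologues of genes with expanded CAG repeats in human polyglutamine diseases, Htt among them, 0 passed. The median of the 9 was 0.142, against -0.01 over all genes. Unadjusted p was under 0.05 for 5 of them, where 2846 of the 15246 genes tested had such a p. DESeq2 called 3 as higher, among 577 genes in all. These were Atxn1, Atxn3 and Cacna1a, at 0.17 ± 0.06, 0.17 ± 0.05 and 0.16 ± 0.05 in edgeR (adjusted p = 0.123, 0.0854 and 0.101). Their NZ libraries all lay above the ND libraries, as did those of 5.07% of the genes tested. DESeq2 was the 1 of the 13 alternative settings in which each passed. Atxn2, Atxn7, Tbp and Atn1 were at 0.09 ± 0.05, 0.09 ± 0.06, 0.15 ± 0.07 and 0.14 ± 0.06, each with overlapping groups. Rpl22, a ribosomal protein gene, had 406, 343, 405 and 427 CPM in NZ libraries and 278, 391.8, 408 and 328 CPM in ND libraries, which overlap (log2 0.17 ± 0.14, adjusted p = 0.575).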

How the data were processed

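The table deposited for the series holds whole-number read counts per gene symbol, and the authors made these counts with STAR and HTSeq on mm10, per the submitters' processing notes, whose versions and settings are not known from the sources used here. Libraries were made with a TruSeq kit, per the labels' protocols. Of 24060 gene rows, 4 were dropped for a repeated symbol, and no per-sample column was unused.

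Genes were kept with filterByExpr of edgeR 4.0.16 (minimum count 10, minimum total 15; R 4.3.3), scaled by TMM, and fitted with the robust quasi-likelihood test over the 15 IP libraries in 1 model of 4 conditions (Benjamini-Hochberg, 0.05). Differences between kinds of library came from models of both. Levels are CPM after TMM; errors of fold changes are standard errors. Alternatives were DESeq2 1.42.0, RLE factors, no filter, a replicate block, only the 2 groups, and each library left out. The tests were run on simulated counts.

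The members, gene lists and rules were chosen with earlier results of these data known. The rule names, of the genes past the threshold, the 12 highest and the 12 lowest with a mean of at least 5 CPM and no overlap, passing over Gm, Rik and -ps symbols; up to 2 per direction of each of 30 lists; Htt, Rpl22 and the polyglutamine orthologues; up to 10 genes lower in the IP, Input and n_ZFP_n_Rpl IP; and up to 5 per direction of the interaction. IP and Input libraries of 1 condition and number deviated together (correlations across genes of 0.42 to 0.66 over the NZ and ND pairs), as the data and not the labels show; same-numbered NZ and ND libraries did not (-0.064 to 0.25). Symbols were matched to RefSeq positions and promoter windows (GRCm38.p6). Some results that the rule names are not reported here. Genes with near-identical copies or overlapping neighbours may share reads.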

Additional observations from a re-analysis of the deposited data

Results flagged for a closer look

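Of 106 groups of 4 libraries (53 named genes, NZ and ND), 4 had a library whose gap to the next exceeded Dixon's critical value, which chance does in about 1 of 20 groups. All 4 were the highest of the NZ libraries: 8.36 CPM for Impdh1, 22.6 for D7Ertd715e, 2.55 for A930013F10Rik and 0.0221 for A330076C08Rik, whose other NZ libraries were at 0.

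The ZFP effect differed between R6/2 and NCAR by the interaction test in 22 of the 53 named genes, 16 of them positive and 6 negative. Some of these genes were named because they passed this test, and most others by the NCAR effect that it subtracts. The count is thus in large part built in. Of all genes tested, 11.4% had a positive interaction and 5.07% a negative one. The values for Ipcef1, Clk1, Snrnp48, Arpp21, Rgs4 and Htr2a were -0.98, -0.75, -0.75, 1.09, 1.61 and 1.66. The others were -0.87 for A930013F10Rik, -0.30 for Atxn7, -0.24 for Pdk1, 0.28 for Cacna1a, 0.29 for Gria1, 0.36 for Dhcr7, 0.42 for Th, 0.49 for Atxn1, 0.53 for Cacnb3, 0.76 for D7Ertd715e, 0.79 for Kit, 0.88 for Rassf3, 1.08 for Zcwpw1, 1.38 for 4930525G20Rik, 4.37 for Gpx6 and 4.65 for A330076C08Rik. Gpx6 was at 0.0627 to 0.105 CPM in the RD libraries and A330076C08Rik at 0 in 3 of 4 NZ libraries, so the size of these fitted values depends on the prior count.

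The ZFP effect differed between IP and Input in 10 named genes, at -3.32 for Tceal6, -2.09 for Nap1l3, -1.74 for Atp2b3, -1.60 for Impdh1, -1.25 for Dach1, -1.06 for Dnajc12, -1.03 for Rassf3, -0.81 for Arpp21, -0.75 for Acsl1 and 0.55 for Meg3. The difference contains the IP effect by which most genes were named, so this count is in large part built in. Of all genes, 0.0738% passed as lower and 0.0554% as higher. With the number as a replicate block, which these paired libraries call for, all 10 passed, and so did Eid2b at -0.68, Rian at 0.31, Rmrp at 0.80, Snrnp48 at 0.44 and A930013F10Rik at 0.71. The ZFP effect in the IP differed from that of the n_ZFP_n_Rpl IP in 12 named genes, at -2.64 for Tceal6, -1.65 for Atp2b3, -1.45 for Nap1l3, -0.82 for Impdh1, -0.81 for Fabp7, -0.44 for Acsl1, -0.24 for Gmps, 0.32 for Atxn1, 0.34 for Atxn7, 0.58 for Snrnp48, 1.11 for Clk1 and 1.94 for Egr1. This count has the same limit. Of all genes, 2.66% passed as lower and 3.16% as higher.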

How the results depend on the processing

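The 12 lowest genes and 11 of the 12 highest stayed past the threshold in all 13 alternatives of the IP comparison, Ipcef1 being the exception; no named gene turned its direction. Calls were lost for large and small changes: A330076C08Rik in 5 of 11 alternatives, Gpx6 in 3 of 13, 4930525G20Rik in 4, A930013F10Rik in 7, Clk1 in 5 and Rgs4 in 5 (highest adjusted p = 0.101, 0.0857, 0.0664, 0.123, 0.0958 and 0.0947). Among the genes named from lists the highest adjusted p was 0.109 for Gmps, 0.107 for Dhcr7, 0.149 for Npc2, 0.134 for Pdk1, 0.149 for Slc7a10, 0.105 for Slc38a3, 0.128 for Gria1 and 0.0887 for Fabp7. In the same order, their calls were lost in 9, 9, 7, 8, 6, 5, 7 and 6 of the 13 alternatives.

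DESeq2 gave 577 higher and 298 lower genes for NZ against ND in the IP, 196 and 140 in the Input, 702 and 1049 in the n_ZFP_n_Rpl IP and 1024 and 1227 in the MG IP; it gave 1184 genes with a negative interaction, 21 higher in IP minus Input, and 668 lower in IP minus n_ZFP_n_Rpl IP. Fits of only the 2 groups gave 77 and 69 in the IP, 40 higher in the Input, and 77 and 164 in the n_ZFP_n_Rpl IP. A replicate block gave 201 higher and 141 lower in the IP, 0 and 3 in the MG IP, and 35 and 22 in IP minus Input; NZ and ND libraries share only a number. The median of RD IP over RD Input was 0.191, 0.245 and 0.191 for the lower genes and -0.267, -0.225 and -0.267 for the higher ones with RLE factors, no filter and DESeq2, chosen after seeing the data.

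With 1 library left out, the IP counts ranged from 84 to 379 higher and 67 to 262 lower, the Input from 33 to 74 and 44 to 79, the n_ZFP_n_Rpl IP from 196 to 445 and 328 to 868, and the MG IP from 5 to 994 and 14 to 1063. RZ against RD ranged from 2508 to 2698 higher and 1742 to 2007 lower, the interaction from 1447 to 1862 and 550 to 836, IP minus Input from 2 to 10 and 8 to 13, and IP minus n_ZFP_n_Rpl IP from 214 to 746 and 177 to 610. The cause of these moves was not tested. No alternative fit with only the 2 groups was made for the interaction or the joint models, nor a block across sets.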
